A study of Mus musculus with 6 samples.

Results

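The 39 genes described here encode proteins that license replication origins, unwind and copy DNA, supply its building blocks and rebuild chromatin behind the fork. They were chosen by name, with earlier results of these data known. All 39 stood among the 17491 genes of the count table, and all 39 passed the filter on low counts, which left 13366 genes for testing. The study asked how verapamil, a drug that blocks calcium entry through L-type channels, changes gene expression in osteoblasts grown from mouse bone marrow. The cultures treated with verapamil and the control cultures gave 3 RNA-seq libraries each. Both came from wildtype mesenchymal stem cells of tibial and femoral marrow. Both had been kept to day 7 under osteogenic conditions, so that the controls too had received ascorbic acid, β-glycerophosphate and dexamethasone. The labels state no verapamil dose and no duration of treatment, and describe no cell sort. Whether a replicate stands for an animal or a culture of its own is not stated, so the p-values speak only of the spread between these libraries, and that spread may be technical.

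A cell that commits to division loads the MCM2-7 ring onto its origins in G1 with the help of the origin recognition complex, Cdc6 and Cdt1. At the start of S phase the ring is joined by Cdc45 and the GINS complex and becomes the active helicase, which polymerases, the Pcna clamp and its loader then follow. Many of these genes are switched on together at the G1/S boundary by E2F transcription factors, and their RNA is a common measure of how much of a culture is cycling. Osteoblasts leave the cell cycle as they mature.

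The promoters of the best studied of these genes hold E2F sites close to the transcription start, so the windows that RefSeq gives were searched. A window held 250 bases before and 50 bases after the start, in GRCm38.p6, and 32 of the 39 genes had one. The 7 not matched were Ccne2, Gins1, Gins2, Gins4, Mcm4, Pole and Rfc2. Where a gene had several windows, the most upstream one was used. The letters TTGGCGC on either strand, or one of the variant strings with other central letters, which were TTCCCGC as well as TTCGCGC and also the string TTGCCGC, stood in 19 of the 32 windows (59.4%), against 16.8% of 10604 windows of tested genes and 9.72% of 27025 windows in all. The CCAAT box, the core of NF-Y sites, stood in 18 (56.3%), against 39.3% of the windows of tested genes and 38.0% of all. TTTGAA, the letters of the CHR element of genes expressed later in the cycle, stood in 4 (12.5%), against 12.1% and 18.2%. In 2 of the 32 windows an E2F match and a CCAAT box shared letters. Of 36 E2F matches, 24 began within 100 bases before the start or in the transcript. Matches that overlap on opposite strands were counted separately. A match is a string of letters, not a bound site. The 4 windows below, 5′ to 3′, belong to 3 genes that rose and to the 1 gene that fell with verapamil. Capitals mark the E2F matches.
Mcm6: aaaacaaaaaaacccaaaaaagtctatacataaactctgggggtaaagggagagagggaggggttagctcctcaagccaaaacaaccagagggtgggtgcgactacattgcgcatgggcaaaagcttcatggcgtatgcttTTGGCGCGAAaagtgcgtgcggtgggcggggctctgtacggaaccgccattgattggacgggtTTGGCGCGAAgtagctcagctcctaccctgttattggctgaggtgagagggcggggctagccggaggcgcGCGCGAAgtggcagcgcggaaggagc
Mcm3: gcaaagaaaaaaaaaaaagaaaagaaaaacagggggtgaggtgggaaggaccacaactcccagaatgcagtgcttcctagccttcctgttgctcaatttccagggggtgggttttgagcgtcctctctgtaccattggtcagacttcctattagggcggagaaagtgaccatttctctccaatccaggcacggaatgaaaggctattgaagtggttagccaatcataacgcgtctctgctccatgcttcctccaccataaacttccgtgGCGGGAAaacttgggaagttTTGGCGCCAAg
Prim1: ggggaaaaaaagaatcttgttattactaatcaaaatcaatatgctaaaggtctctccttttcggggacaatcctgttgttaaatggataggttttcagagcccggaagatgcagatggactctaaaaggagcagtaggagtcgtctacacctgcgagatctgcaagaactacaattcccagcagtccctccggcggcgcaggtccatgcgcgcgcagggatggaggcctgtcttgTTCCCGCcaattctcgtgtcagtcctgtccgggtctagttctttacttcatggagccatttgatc
Rrm2: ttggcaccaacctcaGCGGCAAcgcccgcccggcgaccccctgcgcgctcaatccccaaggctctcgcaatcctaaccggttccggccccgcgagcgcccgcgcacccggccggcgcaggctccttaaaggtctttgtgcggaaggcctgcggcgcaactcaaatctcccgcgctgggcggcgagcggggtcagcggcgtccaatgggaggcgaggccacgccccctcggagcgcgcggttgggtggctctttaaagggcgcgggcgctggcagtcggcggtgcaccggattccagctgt
The windows lie at chr1:128359656-128359955, minus strand (Mcm6), chr1:20820263-20820562, minus strand (Mcm3), chr10:128014965-128015264, plus strand (Prim1) and chr12:24708004-24708303, plus strand (Rrm2). Mcm6 held 5 matches, 4 of them in 2 pairs that overlap on opposite strands. Mcm3 held 3, of which 2 overlap in the same way. Prim1 held 1 that shares a letter with a CCAAT box just before the start. Rrm2 held 1 match, which ran from -235 to -229 relative to the start. A match stood in 7 of the 12 windows of genes that rose and in 11 of the 19 windows of genes that did not pass.

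Library totals ran from 18.2 M to 21.7 M estimated counts. Control libraries lay farther apart than verapamil libraries: chi-square per degree of freedom over the tested genes was 3.57 to 6.21 for verapamil pairs and 12.6 to 49.9 for control pairs, so no 2 libraries of a group agreed within sampling noise. All 15 osteoblast markers examined were above the filter, and so were 19 of 20 macrophage and monocyte markers. Neutrophil, erythroid and lymphocyte markers summed to at most 2.02, 1.88 and 1.62 CPM in any library. The cultures therefore held RNA of osteoblast and of macrophage markers, and in bulk RNA fewer cells of a type and less RNA per cell cannot be told apart. Levels are given as CPM, read counts per 1 M reads scaled with TMM factors, and changes as log2 fold changes of verapamil over control from edgeR's quasi-likelihood test, with p adjusted over all 13366 genes by Benjamini-Hochberg.

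Replication genes stood higher with verapamil as a broad, shallow shift in which Rrm2 went the other way. Of the 39 genes, 15 rose, 1 fell and 23 did not pass. Over all genes tested, 15.4% rose and 16.3% fell (31.7% passed in either direction), against 38.5% and 2.56% of the replication genes. The median log2 fold change was 0.37 for the 39 genes, with a range of -0.57 to 0.79, against 0.0077 for all genes tested. The log2 fold change was above 0 in 38 of the 39, against 51.2% of all genes. All 3 verapamil libraries stood above all 3 controls in 25 of the 39, where 25.2% of all genes did so. They stood below in 1, where 24.4% of all genes did so. The number that rose depended on single libraries. It was 6, 3 and 8 without verapamil replicates 1, 2 and 3, when 7.61%, 7.49% and 9.13% of all genes rose, and 5 without control replicate 1, when 9.01% did. Without control replicate 2 it was 16 (17% of all genes), and without control replicate 3 it was 26 (18.2%). No replication gene fell without verapamil replicate 1, 2 or 3 or control replicate 1, when 9.05%, 9.09%, 10.3% and 10.8% of all genes fell, and Rrm2 alone fell without control replicate 2 or 3 (18.8% and 19.2%). Without verapamil replicate 2 the share of replication genes was thus near that of all genes. Other processing choices moved the count less. With libraries scaled by their totals alone 20 rose (21.2% of all genes), with DESeq2 size factors 14 (15%) and with upper-quartile factors 16 (16.6%). With no low-count filter 13 rose (11.1%), and with a filter of 5 CPM in 3 libraries 14 of 34 tested (17.4%). The DESeq2 test gave 16 (13.6%) and limma-voom 18 (15.7%). Rrm2 alone fell under each of these 7 choices. Of all genes, 12.1% to 18% fell with scaling, the 5 CPM filter or the tool changed, and 11.6% with no filter. With the replicate number as a blocking factor 11 rose (10.2% of all genes) and 0 fell (11.9%), so Rrm2 lost its call there.

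**Figure D1:**
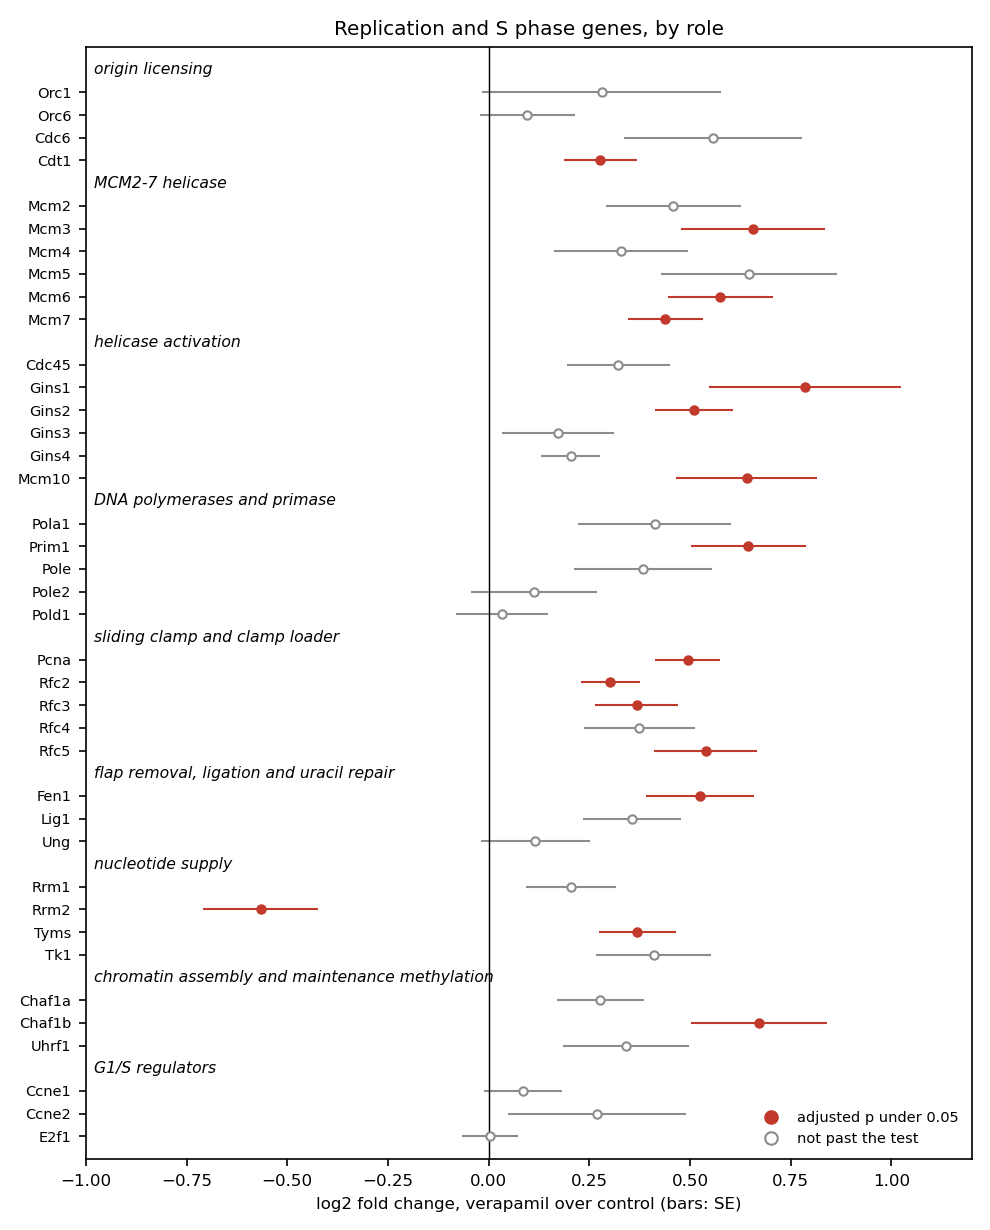
Log2 fold change of verapamil over control for the 39 genes, grouped by role; bars are the standard error and filled points passed the test at an adjusted p under 0.05. All points but Rrm2 lie above 0, and E2f1 and Pold1, at 0.0034 and 0.03, lie closest to it.

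Controls differed from each other more than the drug-treated libraries did in these genes. The coefficient of variation had a median of 5.95% among verapamil libraries and 17.2% among controls, against 5.10% and 9.11% over all genes tested. Control replicate 3 had the highest control level in 28 of the 39 genes, and control replicate 2 the lowest in 27. Over all genes, these libraries held those places in 34.9% and 39.4%. Mean log2 CPM of the 39 genes was 4.06, 4.05 and 4.04 in verapamil replicates 1, 2 and 3, against 3.68, 3.50 and 3.87 in control replicates 1, 2 and 3. Set against 1 control at a time, the mean of the verapamil libraries was higher in 38 genes against control replicate 1, with a median difference of 0.36 in log2 CPM. It was higher in 35 genes against control replicate 2 (median 0.63) and in 33 against control replicate 3 (median 0.16). Over all genes tested, the median difference was 0.00905, 0.00878 and -4.97e-04 against control replicates 1, 2 and 3. The share of all genes above each control is not given here. The size of the shift in the 39 genes thus depended on which control was used.

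**Figure D2:**
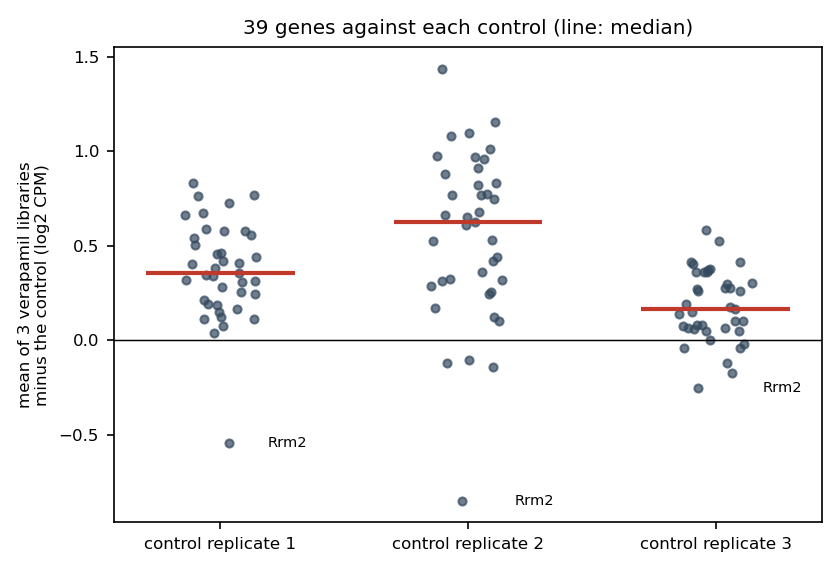
Mean log2 CPM of the 3 verapamil libraries minus log2 CPM of each control replicate, 1 point per gene, with the median as a line. Medians are 0.36, 0.63 and 0.16 for control replicates 1, 2 and 3, and Rrm2 is the lowest point against each control. Over all genes tested, which are not drawn, the medians are 0.00905, 0.00878 and -4.97e-04.

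Of 4 origin licensing factors, Cdt1 rose and 3 did not pass. The shares to set beside this role and those below are 15.4% of all genes tested that rose and 16.3% that fell. Each role holds few genes, and differences between roles were not tested. Cdt1, which brings the MCM ring to origins, was at 14.8, 13.4 and 13.7 CPM in verapamil replicates 1, 2 and 3, against 10.9, 11.1 and 12.4 CPM in control replicates 1, 2 and 3, and the groups did not overlap. Cdt1 rose by 0.28 ± 0.09 SE, adjusted p = 0.0486. That call was lost with verapamil replicate 1, 2 or 3 or control replicate 1 or 2 left out (adjusted p = 0.0757 to 0.174). It was lost too with DESeq2 size factors, with no filter on low counts and with the DESeq2 test. With the replicate number as a blocking factor Cdt1 did not pass either (adjusted p = 0.11). Cdc6, the ATPase that works beside Cdt1, had the largest log2 fold change of the 4 (0.56 ± 0.22 SE, adjusted p = 0.0876). Its levels were 5.90, 5.28 and 6.06 CPM in verapamil replicates 1, 2 and 3, against 3.33, 2.88 and 5.42 CPM in control replicates 1, 2 and 3. Control replicate 3 reached into the verapamil range, and without it Cdc6 passed (adjusted p = 0.00263). The origin recognition complex subunits Orc1 (0.28 ± 0.30 SE, adjusted p = 0.506) and Orc6 (0.10 ± 0.12 SE, adjusted p = 0.569) had overlapping groups. Orc6, the highest of the 4 per kilobase of transcript, was at 15.8, 14.3 and 16.6 CPM in verapamil replicates 1, 2 and 3, against 14.0, 12.7 and 16.9 CPM in control replicates 1, 2 and 3.

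The MCM2-7 helicase, a ring of 6 different subunits, had 3 members that rose and 3 that did not pass, with a median log2 fold change of 0.52. In 5 of the 6 every verapamil library lay above every control, where 25.2% of all genes did so. Mcm3 (chromosome 1, 20802966 to 20820312 in GRCm38), whose promoter is printed above, showed the largest change of the ring. Per kilobase, Mcm3 was at 15.4 CPM with verapamil, the highest of the ring, and at 9.74 CPM in control, where Mcm4 stood at 10.0 CPM. It was at 43.7, 50.1 and 46.0 CPM in verapamil replicates 1, 2 and 3, against 26.1, 23.6 and 38.9 CPM in control replicates 1, 2 and 3. Control replicates 1 and 2 were far below the verapamil libraries and control replicate 3 just below them. Mcm3 rose by 0.66 ± 0.18 SE, adjusted p = 0.0305, a call lost with verapamil replicate 1, 2 or 3 or control replicate 1 or 2 left out (adjusted p = 0.0708 to 0.101) and with no filter on low counts. Mcm6 (chromosome 1, 128331575 to 128359705 in GRCm38), which carries 5 E2F matches, was at 62.1, 63.6 and 58.8 CPM in verapamil replicates 1, 2 and 3, against 38.5, 34.5 and 50.7 CPM in control replicates 1, 2 and 3. Its rise (0.58 ± 0.13 SE, adjusted p = 0.0139) was lost with verapamil replicate 1 or 2 or control replicate 1 left out (adjusted p = 0.0563 to 0.0616). Mcm7 (chromosome 5, 138164583 to 138172111 in GRCm38) was at 41.1, 36.4 and 34.8 CPM in verapamil replicates 1, 2 and 3, against 29.1, 24.5 and 29.1 CPM in control replicates 1, 2 and 3, and its groups did not overlap. Mcm7 rose by 0.44 ± 0.09 SE, adjusted p = 0.00942, and this call held without each library in turn (adjusted p at most 0.0494).

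The other ring subunits did not pass with all libraries. Mcm2 was at 31.0, 30.7 and 34.1 CPM in verapamil replicates 1, 2 and 3, against 23.2, 17.3 and 29.0 CPM in control replicates 1, 2 and 3 (0.46 ± 0.17 SE, adjusted p = 0.0755). Mcm5 was at 26.8, 29.1 and 27.3 CPM in verapamil replicates 1, 2 and 3, against 16.3, 12.4 and 24.3 CPM in control replicates 1, 2 and 3 (0.65 ± 0.22 SE, adjusted p = 0.0614). For both, control replicate 2 was lowest and the groups did not overlap. Mcm4 (0.33 ± 0.17 SE, adjusted p = 0.176) overlapped, at 45.0, 47.2 and 43.8 CPM in verapamil replicates 1, 2 and 3, against 35.7, 27.0 and 45.3 CPM in control replicates 1, 2 and 3, since control replicate 3 lay within the verapamil range. Without control replicate 3 all of Mcm2, Mcm4 and Mcm5 passed (adjusted p = 0.00391, 0.00723 and 4.37e-04), and Mcm2 also passed without control replicate 2 (adjusted p = 0.042). Mcm2 and Mcm5 passed with the DESeq2 test, and Mcm5 with limma-voom. Per kilobase of transcript, the highest subunit was 1.82 to 1.92 times the lowest in the verapamil libraries. In the controls it was 1.79 to 2.25 times the lowest. Mcm5 was the lowest in all 6 libraries by this measure. It uses the longest coding transcript of each gene, which need not be the one expressed, so the order of subunits is uncertain.

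Helicase activation factors had 3 of 6 members that rose. Gins2 (chromosome 8, 120581266 to 120589075 in GRCm38), a subunit of the GINS complex that joins the ring to Cdc45, was at 11.1, 10.7 and 10.2 CPM in verapamil replicates 1, 2 and 3, against 7.98, 7.32 and 7.07 CPM in control replicates 1, 2 and 3. The groups lay well apart and each was tight. Gins2 rose by 0.51 ± 0.10 SE, adjusted p = 0.00597, and the call held without each library in turn (adjusted p at most 0.0357). Its partner Gins1 had the largest log2 fold change of the 39 genes at a low level, 4.25, 3.79 and 4.18 CPM in verapamil replicates 1, 2 and 3, against 2.54, 1.44 and 3.03 CPM in control replicates 1, 2 and 3. Gins1 rose by 0.79 ± 0.24 SE, adjusted p = 0.0363, but not with verapamil replicate 1, 2 or 3 or control replicate 1 left out (adjusted p = 0.0849 to 0.115). Mcm10, which helps the assembled helicase to start, was at 6.86, 7.08 and 5.79 CPM in verapamil replicates 1, 2 and 3, against 4.32, 3.21 and 5.05 CPM in control replicates 1, 2 and 3. It rose by 0.64 ± 0.17 SE, adjusted p = 0.0246, a call lost with verapamil replicate 1 or 2 or control replicate 1 left out (adjusted p = 0.0773 to 0.0972). Cdc45 (0.32 ± 0.13 SE, adjusted p = 0.0889) and Gins4 (0.20 ± 0.07 SE, adjusted p = 0.0652) had groups that did not overlap but did not pass, and both passed with libraries scaled by totals alone. Cdc45 passed without control replicate 2 (adjusted p = 0.0245). Gins4, the highest of these factors per kilobase, was at 25.1, 22.1 and 23.3 CPM in verapamil replicates 1, 2 and 3, against 20.5, 19.8 and 20.8 CPM in control replicates 1, 2 and 3. Gins3 (0.17 ± 0.14 SE, adjusted p = 0.384) overlapped. The 4 GINS subunits, which form 1 complex, thus ran from 0.17 to 0.79 on the log2 scale, and the differences among them were not tested.

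**Figure D3:**
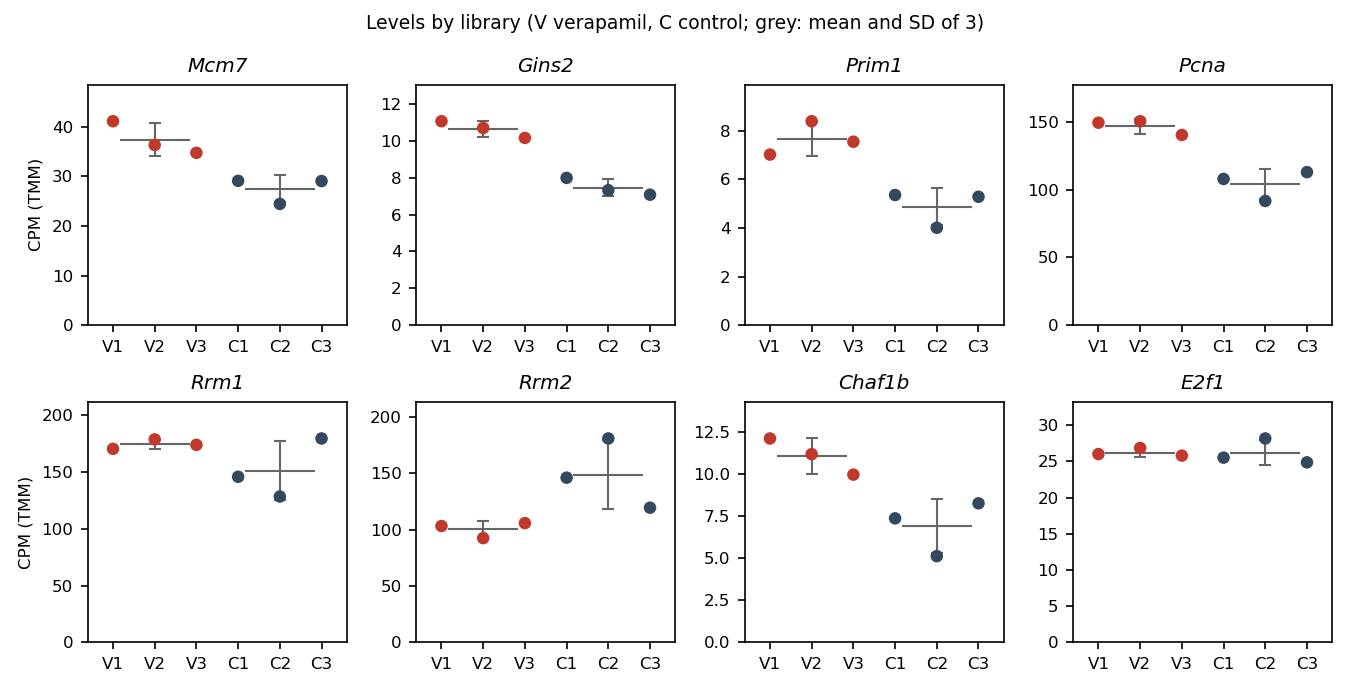
CPM of 8 genes in each library, verapamil (V) left of control (C), with the mean and SD of 3 libraries in grey; axes start at 0. Mcm7, Gins2, Prim1, Pcna and Chaf1b lie higher in every verapamil library than in any control, Rrm2 lies lower, and Rrm1 and E2f1 overlap.

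Of 5 DNA polymerase and primase genes, Prim1 rose and 4 did not pass. Prim1 (chromosome 10, 128015215 to 128030030 in GRCm38), the catalytic subunit of the primase that lays the RNA primer, was at 7.02, 8.39 and 7.55 CPM in verapamil replicates 1, 2 and 3, against 5.35, 4.01 and 5.28 CPM in control replicates 1, 2 and 3. It rose by 0.65 ± 0.14 SE, adjusted p = 0.0108, and the call was lost with verapamil replicate 2 left out (adjusted p = 0.0558). Pola1, the catalytic subunit of the polymerase α that extends that primer, was at 16.9, 18.0 and 17.5 CPM in verapamil replicates 1, 2 and 3, against 14.0, 8.92 and 16.3 CPM in control replicates 1, 2 and 3 (0.41 ± 0.19 SE, adjusted p = 0.139). Control replicate 2 was much lower than every other library, and the call of Pola1 was made without control replicate 3 (adjusted p = 0.0243). Pole, the leading-strand polymerase, had 0.38 ± 0.17 SE, adjusted p = 0.123, and passed without control replicate 3 (adjusted p = 0.0105). Its small subunit Pole2 (0.11 ± 0.16 SE, adjusted p = 0.621) and the lagging-strand polymerase Pold1 (0.03 ± 0.11 SE, adjusted p = 0.853) overlapped. Pold1, the highest of the 5 per kilobase over the mean of all libraries but below Prim1 with verapamil, was at 15.4, 16.9 and 13.6 CPM in verapamil replicates 1, 2 and 3, against 13.6, 16.8 and 14.6 CPM in control replicates 1, 2 and 3, which were mixed in order between the groups.

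The sliding clamp and its loader had 4 of 5 genes that rose, where 15.4% of all genes did so. Every verapamil library lay above every control in all 5, where 25.2% of all genes did so. Pcna (chromosome 2, 132249286 to 132253180 in GRCm38), the ring that holds polymerases on DNA, was at 149, 150.5 and 140.3 CPM in verapamil replicates 1, 2 and 3, against 108, 91.7 and 113 CPM in control replicates 1, 2 and 3. It rose 1.41-fold (0.49 ± 0.08 SE, adjusted p = 0.00312), and the call held without each library in turn (adjusted p at most 0.024). Among the clamp loader subunits, Rfc5 had the largest change, at 12.5, 13.0 and 12.9 CPM in verapamil replicates 1, 2 and 3, against 7.70, 8.12 and 10.6 CPM in control replicates 1, 2 and 3 (0.54 ± 0.13 SE, adjusted p = 0.0146). This call was lost with verapamil replicate 1, 2 or 3 or control replicate 1 left out (adjusted p = 0.0529 to 0.0594). Rfc2 rose by 0.30 ± 0.07 SE, adjusted p = 0.0154, but not with verapamil replicate 2 or 3 left out (adjusted p = 0.0594 to 0.0687). Rfc3 rose by 0.37 ± 0.10 SE, adjusted p = 0.0271, but not with verapamil replicate 2 or 3 or control replicate 1 left out (adjusted p = 0.0929 to 0.114), nor with the DESeq2 test (adjusted p = 0.0529). Rfc4, at 8.19 ± 1.40 CPM with verapamil and 6.31 ± 0.206 CPM in control (SD, n = 3 each), did not pass (0.37 ± 0.14 SE, adjusted p = 0.0691). RefSeq lists pseudogenes of Pcna and of Tyms, so how reads were shared with those copies is uncertain.

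Of the genes for flap removal, ligation and uracil repair, Fen1 rose and Lig1 and Ung did not pass. Fen1, the nuclease that trims the flaps of Okazaki fragments, had 24.7, 27.0 and 22.1 CPM in verapamil replicates 1, 2 and 3, against 16.4, 14.3 and 20.4 CPM in control replicates 1, 2 and 3. It rose by 0.53 ± 0.13 SE, adjusted p = 0.0196, but not with verapamil replicate 1 or 2 or control replicate 1 left out (adjusted p = 0.0715 to 0.0838). Lig1, the ligase that seals those fragments, was at 23.4 ± 0.966 CPM with verapamil and 18.2 ± 3.22 CPM in control (SD, n = 3 each) and just missed the threshold (0.36 ± 0.12 SE, adjusted p = 0.0544). It passed without control replicate 2 or 3 (adjusted p = 0.049 and 0.0104), and with upper-quartile factors, totals alone, the DESeq2 test and limma-voom. Ung, the uracil-DNA glycosylase, differed little, at 3.33 ± 0.0857 CPM with verapamil and 3.08 ± 0.153 CPM in control (SD, n = 3 each; 0.12 ± 0.14 SE, adjusted p = 0.551).

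Nucleotide supply held the one gene of the 39 that fell. Rrm2 (chromosome 12, 24708254 to 24714146 in GRCm38), the small subunit of ribonucleotide reductase and the one whose level is regulated through the cycle, was at 103, 92.4 and 106 CPM in verapamil replicates 1, 2 and 3, against 146, 181 and 119 CPM in control replicates 1, 2 and 3. All 3 verapamil libraries lay below all 3 controls, and control replicate 2, the lowest control for most replication genes, was the highest for Rrm2. Rrm2 fell by 0.57 on the log2 scale, with an SE of 0.14 and an adjusted p of 0.0227. That call was lost with verapamil replicate 1, 2 or 3 or control replicate 1 left out (adjusted p = 0.0544 to 0.0812). With 1 library left out, the log2 fold change stayed between -0.70 and -0.41. The call was also lost with the replicate number as a blocking factor (adjusted p = 0.0528). Rrm1, the large subunit of the same enzyme, was at 170.3, 179 and 174 CPM in verapamil replicates 1, 2 and 3, against 146, 128 and 179 CPM in control replicates 1, 2 and 3 (0.20 ± 0.11 SE, adjusted p = 0.196). It overlapped through control replicate 3 and passed without that library (adjusted p = 0.00517). The ratio of Rrm2 to Rrm1 counts within a library was 0.605, 0.517 and 0.608 in verapamil replicates 1, 2 and 3, against 1.00, 1.41 and 0.665 in control replicates 1, 2 and 3. Unlike a level, this ratio does not depend on the scaling of libraries, and it was lower in every verapamil library than in any control, with control replicate 3 nearest to them. Outside the 39, Rrm2b, the alternative small subunit used outside S phase, was at 19.9 ± 1.86 CPM with verapamil and 16.9 ± 0.888 CPM in control (SD, n = 3 each; 0.23 ± 0.09 SE, adjusted p = 0.0784).

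Of the thymidylate genes of this role, Tyms rose and Tk1 did not pass. Tyms, which makes thymidylate from deoxyuridylate, was at 15.1, 14.7 and 14.0 CPM in verapamil replicates 1, 2 and 3, against 11.6, 10.1 and 12.0 CPM in control replicates 1, 2 and 3. Tyms rose by 0.37 ± 0.09 SE, adjusted p = 0.0197, but not with verapamil replicate 1, 2 or 3 or control replicate 1 left out (adjusted p = 0.051 to 0.0842). Tk1, the S phase thymidine kinase of the salvage route, was at 14.0, 12.9 and 14.3 CPM in verapamil replicates 1, 2 and 3, against 9.30, 8.87 and 12.8 CPM in control replicates 1, 2 and 3. Its groups were barely apart at control replicate 3, it did not pass (0.41 ± 0.14 SE, adjusted p = 0.058), and it passed without that library (adjusted p = 0.0024), with totals alone and with limma-voom.

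In chromatin assembly, Chaf1b rose and Chaf1a and Uhrf1 did not pass. Chaf1b, a subunit of the chaperone that places histones behind the fork, was at 12.1, 11.2 and 9.97 CPM in verapamil replicates 1, 2 and 3, against 7.37, 5.13 and 8.27 CPM in control replicates 1, 2 and 3, with control replicate 2 lowest. It rose by 0.67 ± 0.17 SE, adjusted p = 0.0182, but not with verapamil replicate 1 or 2 or control replicate 1 left out (adjusted p = 0.0573 to 0.0801). Chaf1a, its partner in the complex, had 0.28 ± 0.11 SE, adjusted p = 0.0797. Uhrf1, which guides maintenance methylation to new DNA and was the highest of the 3 per kilobase, was at 24.3, 24.8 and 24.9 CPM in verapamil replicates 1, 2 and 3, against 20.2, 14.4 and 23.6 CPM in control replicates 1, 2 and 3 (0.34 ± 0.16 SE, adjusted p = 0.132). Without control replicate 3 both passed (adjusted p = 0.00664 for Chaf1a and 0.0165 for Uhrf1).

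The G1/S regulators on the list showed no call. E2f1, a transcription factor that activates S phase genes, was at 26.0, 26.8 and 25.8 CPM in verapamil replicates 1, 2 and 3, against 25.5, 28.2 and 24.9 CPM in control replicates 1, 2 and 3, and the highest and the lowest value were both controls. Its log2 fold change was 0.0034 ± 0.07 SE (adjusted p = 0.977), with a sign that turned under several alternatives. Cyclin E genes, whose products drive entry into S phase, overlapped as well. Ccne1 had 0.09 ± 0.10 SE, adjusted p = 0.534 and Ccne2 had 0.27 ± 0.22 SE, adjusted p = 0.394. Ccne2 was at 13.0, 9.29 and 11.9 CPM in verapamil replicates 1, 2 and 3, against 10.4, 6.36 and 11.4 CPM in control replicates 1, 2 and 3, with control replicate 2 lowest.

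Levels could be compared between genes only per kilobase of transcript, taken from the longest coding transcript. On that scale, Pcna was highest by the mean of each group, at 96.7 ± 3.67 CPM per kilobase with verapamil and 68.6 ± 7.31 in control (SD, n = 3 each). Rrm2 and Rrm1 were at 45.8 and 43.6 CPM per kilobase with verapamil and 67.8 and 37.8 in control (SDs of 14.0 and 6.49), where Rrm2 and Pcna did not differ beyond their spread. Orc1 was lowest, at 0.672 ± 0.0250 with verapamil and 0.547 ± 0.232 in control.

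Of 56 other replication genes tested, 18 rose, 1 fell and 37 did not pass, with a median log2 fold change of 0.27, where 15.4% of all genes rose and 16.3% fell. Asf1b, a histone chaperone, had the largest change past the test (0.82 ± 0.22 SE, adjusted p = 0.0284), lost with verapamil replicate 1, 2 or 3 or control replicate 1 left out (adjusted p = 0.0648 to 0.0975). Gmnn, the inhibitor of Cdt1 that stops origins from being licensed again, was at 21.4, 22.3 and 20.8 CPM in verapamil replicates 1, 2 and 3, against 13.9, 13.5 and 15.4 CPM in control replicates 1, 2 and 3, with no overlap. It rose by 0.59 ± 0.08 SE, adjusted p = 0.00142, a call kept without each library in turn. Hells, a chromatin remodeller, rose by 0.58 ± 0.15 SE, adjusted p = 0.0187, but not with verapamil replicate 1, 2 or 3 or control replicate 1 left out (adjusted p = 0.0529 to 0.0748). The gene that fell was Timeless, a fork protection factor named after its value was seen (-0.31 ± 0.10 SE, adjusted p = 0.0428), and its call was lost with verapamil replicate 1, 2 or 3 or control replicate 1 or 3 left out (adjusted p = 0.0765 to 0.138).

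Mitosis genes, which follow S phase in the same cycle, had 11 of 30 that rose, 0 that fell and 19 that did not pass by edgeR, with a median of 0.39, where 15.4% of all genes rose and 16.3% fell. Kif20a, a kinesin of cytokinesis, was at 29.0, 29.4 and 27.7 CPM in verapamil replicates 1, 2 and 3, against 17.0, 14.6 and 21.2 CPM in control replicates 1, 2 and 3. It rose by 0.70 ± 0.12 SE, adjusted p = 0.00426, and the call held without each library in turn. Ccnb1, the mitotic cyclin, rose by 0.65 ± 0.18 SE, adjusted p = 0.0289, but not with verapamil replicate 1, 2 or 3 or control replicate 1 or 2 left out (adjusted p = 0.0634 to 0.095). Plk1, a mitotic kinase, rose by 0.64 ± 0.14 SE, adjusted p = 0.0102, but not with verapamil replicate 1 or control replicate 1 left out (adjusted p = 0.0505 to 0.0532). Mean log2 CPM of the mitosis genes was 4.38, 4.34 and 4.31 in verapamil replicates 1, 2 and 3, against 3.89, 3.65 and 4.19 in control replicates 1, 2 and 3. This was the order of libraries that the replication genes had, with control replicate 2 lowest and control replicate 3 nearest to the verapamil libraries.

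The markers of other cells and the hypoxia genes moved over the same libraries, and their part in the result was not tested. Over all genes tested, 15.4% rose and 16.3% fell, with a median log2 fold change of 0.0077. Of 19 macrophage and monocyte markers tested, 13 rose, 2 fell and 4 did not pass, with a median of 0.55. Their summed level ran from 14466 to 16489.5 CPM in verapamil libraries and from 7466 to 9878 CPM in controls. Control replicate 2 had the lowest sum and control replicate 3 the highest among controls, as for replication genes. Lyz2 made up most of the sum, at means of 11197 CPM with verapamil and 5536 CPM in control. Mean log2 CPM of the tested markers ran in the same order, at 5.92, 5.82 and 6.04 in control replicates 1, 2 and 3. Marco (3.10) and Clec7a (1.89) rose and Cx3cr1 fell (-2.31). Of 15 osteoblast markers, 12 fell and 3 did not pass, with a summed level of 33779 to 34423 CPM with verapamil and 56505 to 70229 CPM in control. Examples were Ifitm5 (-2.15), Col1a1 (-1.66) and Col1a2 (-1.28). Ifitm5 was at very low levels, with means of 0.176 CPM with verapamil and 0.791 CPM in control. Of 15 hypoxia response genes, 10 fell, 1 rose and 4 did not pass, among them Egln3 (-3.54), Bnip3 (-2.05) and Ero1a (-1.88). Ero1a was not past the test with verapamil replicate 1, 2 or 3 or control replicate 2 left out (adjusted p = 0.0618 to 0.073). Mean log2 CPM of the hypoxia genes was 5.28, 5.12 and 5.19 in verapamil replicates 1, 2 and 3, against 6.26, 6.90 and 5.75 in control replicates 1, 2 and 3. The control with the highest hypoxia level, replicate 2, had the lowest replication level, and the control with the lowest hypoxia level, replicate 3, the highest. Of 8 endothelial markers 4 fell and 0 rose, at a summed 49.4 to 50.9 CPM with verapamil and 59.9 to 66.0 CPM in control. Esam (-0.81), Pecam1 (-0.58) and Tie1 (-0.55) fell, though Esam not with verapamil replicate 1, 2 or 3 left out (adjusted p = 0.0611 to 0.0756) and Tie1 not with verapamil replicate 1 or 3 left out (adjusted p = 0.0668 to 0.0724). Of the markers of neutrophils, lymphocytes and erythroid cells, 1 each passed the low-count filter. S100a8 (1.15) passed the test, but not with verapamil replicate 1, 2 or 3 or control replicate 2 or 3 left out (adjusted p = 0.0618 to 0.159), while Cd8a (0.41) and Epor (0.34) did not. Ly6g, Mpo, Ngp, S100a9, Cd3e, Ighm, Hba-a2, Hbb-bt and Ca9 were not analysed here.

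**Figure D4:**
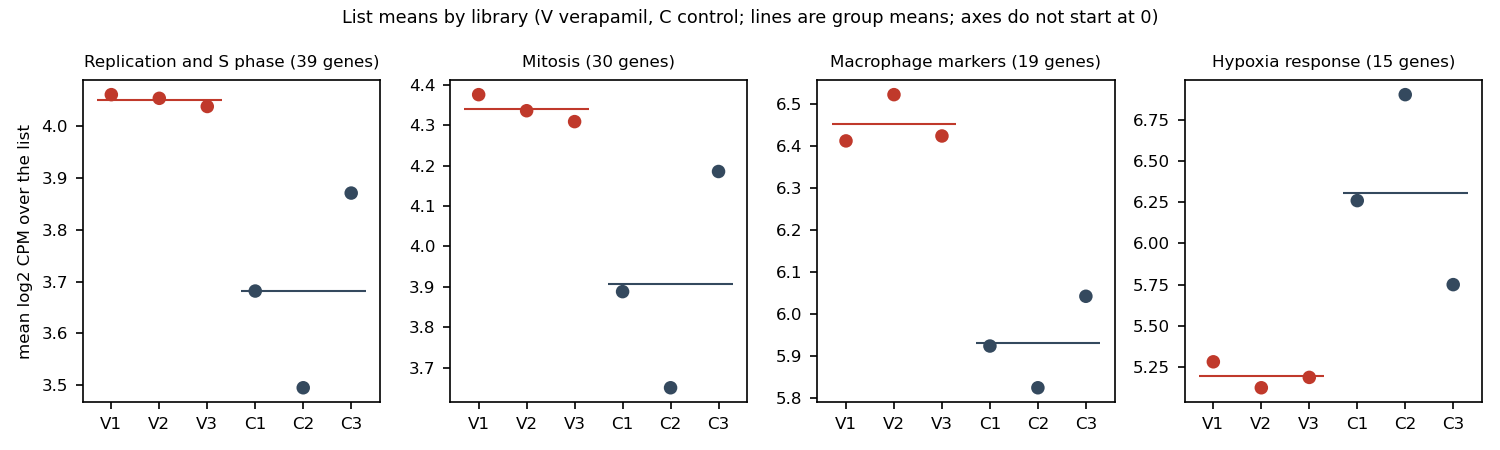
Mean log2 CPM in each library over the 39 replication genes, mitosis genes, macrophage markers and hypoxia genes, with verapamil (V) left of control (C) and group means as lines; axes do not start at 0. The 3 verapamil libraries lie close together in each panel, control replicate 2 is lowest for replication, mitosis and macrophage genes and highest for hypoxia genes.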

How the data were processed

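RNA-seq libraries of 3 verapamil and 3 control cultures had been made from total RNA with a SMARTER mRNA-seq kit, per the labels. The deposited values are the authors' estimated counts for each gene in each library, headed as read counts and not scaled to depth or length. Of these, 67.7% were not whole. The build in the submitters' processing notes is GRCm38 (mm10). Aligner, counter, annotation and strand setting: not given in the sources used here. Reads from overlapping genes, or from a gene and its antisense partner, can therefore not be separated.

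Counts were rounded and filtered with filterByExpr (minimum count 10, minimum total 15), which took out 4125 genes. Verapamil was compared with control in edgeR 4.0.16 (R 4.3.3) with TMM factors and the robust quasi-likelihood fit, adjusted by Benjamini-Hochberg over 13366 genes, with a threshold of 0.05. The SE was derived from the F statistic by dividing the size of the log2 fold change by its square root. Log2 CPM used a prior count of 2. Precision between samples rests on 3 libraries per group. The test was also tested on simulated data. Coordinates and promoters came from RefSeq, and lengths from the longest coding GENCODE transcript, for all 39 genes.

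The members and lists were chosen with earlier results of these data known. In each role, values by library were due for the member with the largest change and the one highest per kilobase, and from each other list for up to 3 genes past the test with the largest change, or, where none passed, the 2 highest. Other genes were named after their values were seen. Tried besides were scaling by totals alone, by upper quartiles or by DESeq2 size factors, no filter or 5 CPM in 3 libraries, DESeq2 1.42.0, limma-voom with limma 3.58.1, counts left unrounded, fits leaving out 1 library, and the replicate number as a blocking factor.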

Additional observations from a re-analysis of the deposited data

How the results depend on the processing

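Under scaling, filter, rounding and tool alternatives, the number of the 39 genes called stayed within 1.5 times 16, and Rrm2 stayed lower and past the test. The median log2 fold change of the 39 was 0.28 to 0.47 over all alternatives. Leaving out 1 library gave 3 to 27 genes called, 3 to 26 higher and 0 to 1 lower, and 2236 to 5042 over all genes, where 4235 were called with all libraries. Fewer samples reduce power, so a lost call shows no absence. Called without each library in turn were 3 of the 16: Mcm7, Gins2 and Pcna. The matching share of all called genes is not given here, so these 3 cannot be set against it. With totals alone, 63.7% of all calls were higher, against 48.5% with TMM. Signs turned for genes near 0: E2f1 was at -0.0028 with DESeq2 size factors and -0.0026 with the DESeq2 test, and between -0.035 and 0.052 with 1 library left out. Orc1 was at -0.0018 to 0.59, Pole2 at -0.0075 to 0.23 and Pold1 at -0.049 to 0.12 in those fits. With 5 CPM in 3 libraries, Gins1, Gins3, Orc1, Pole2 and Ung were not tested.

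Same-numbered libraries of both groups did not deviate together (correlations of 0.0089, -0.17 and -0.13 for numbers 1, 2 and 3), so the numbers were not taken as pairs. With the replicate block, 11 of the 39 genes were higher and 0 lower, where 10.2% of all genes were higher and 11.9% lower (2953 called in all). Rrm2 lost its call in that fit (adjusted p = 0.0528), and so did Cdt1, Fen1, Mcm10, Rfc2, Rfc3 and Tyms. Mcm2 and Tk1 gained a call there (adjusted p = 0.0302 and 0.0496).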

Other observations

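Of 32 tested G1/S control genes beside the 39, 7 rose, 1 fell and 24 did not pass, with a median log2 fold change of 0.10. Over all genes tested, 15.4% rose and 16.3% fell, with a median of 0.0077. E2f2, an activating E2F factor, was at 18.5, 17.8 and 14.1 CPM in verapamil replicates 1, 2 and 3, against 7.70, 6.41 and 10.7 CPM in control replicates 1, 2 and 3. It rose by 1.01 ± 0.19 SE, adjusted p = 0.0063 by edgeR, with or without each library, while E2f1 differed by less than its SE. The gene that fell was Ccnd1, cyclin D1, which links growth signals to the cell cycle, at 650.0, 561 and 664 CPM in verapamil replicates 1, 2 and 3, against 900.4, 1048 and 795 CPM in control replicates 1, 2 and 3 (-0.55 ± 0.11 SE, adjusted p = 0.00838), also without each library in turn.

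The same list held 7 genes for inhibitors of cyclin-dependent kinases, of which 4 rose and 3 did not pass; they were set together after their values were seen. Cdkn2b (0.24 ± 0.06 SE, adjusted p = 0.0154), Cdkn2c (0.48 ± 0.15 SE, adjusted p = 0.0489), Cdkn2d (0.26 ± 0.08 SE, adjusted p = 0.0417) and Cdkn1c (0.53 ± 0.16 SE, adjusted p = 0.0339) rose by edgeR. Cdkn1b (0.04 ± 0.07 SE, adjusted p = 0.7) and Cdkn2a (0.14 ± 0.07 SE, adjusted p = 0.151) did not pass. Neither did Cdkn1a, the p53 target p21, at 526 ± 28.0 CPM with verapamil and 517 ± 34.9 CPM in control (SD, n = 3 each; 0.03 ± 0.08 SE, adjusted p = 0.816). Of the 3 pocket protein genes, Rbl2 rose (0.39 ± 0.12 SE, adjusted p = 0.0397), while Rb1 (-0.01 ± 0.06 SE, adjusted p = 0.945) and Rbl1 (0.43 ± 0.21 SE, adjusted p = 0.166) did not pass. None of the 4 inhibitor genes that rose, nor Rbl2, kept its call without verapamil replicate 1 or control replicate 1 (adjusted p up to 0.163 over libraries left out). E2f8, a repressive E2F factor, rose too (0.49 ± 0.16 SE, adjusted p = 0.0414), but not with verapamil replicate 1, 2 or 3 or control replicate 1 left out (adjusted p = 0.0653 to 0.143). All but Cdkn1c, E2f2 and Ccnd1 were named after their values were seen.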
